A study of Mus musculus with 11 samples.

Results

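Solute carriers are membrane proteins that move sugars, amino acids, nucleosides, metals, ions and other small molecules across the plasma membrane and the membranes of organelles. Their genes are named Slc with a family number, and members of 1 family usually share a fold and related substrates. Some take nutrients into the cell, others export them or move them between the cytosol and lysosomes, the Golgi or vesicles. Blood stem cells are known for low rates of division in the adult and for frequent division in the fetal liver, and uptake of glucose, amino acids and iron is part of how dividing blood progenitors grow.

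The genes described here are those of the Slc families, without the mitochondrial Slc25a family, that had at least 1 RPKM (reads per kilobase of transcript, scaled to the reads of the library) in at least 3 of 7 libraries of hematopoietic stem cells (HSCs) sorted by FSC-A. FSC-A is the area of the forward light scatter signal in flow cytometry, which is used as a measure of cell size. Of 332 Slc genes measured outside that family, 138 met this rule and 194 did not, 95 of them listed at 0 in every library. The rule used the level and not the difference between the gates, but on the same 7 libraries, so counts and medians over the 138 genes are a description. 47 Slc25a genes were left out.

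The donors of all cells were wild-type C57BL/6 mice on postnatal day 0. Liver cells were sorted as Lineage- Sca1+ cKit+ CD150+ CD48- HSCs, with 100 to 200 cells per library, and libraries were made by Smart-seq2, a full-length method that does not mark the strand. There were 4 FSC-A High libraries and 3 FSC-A Low libraries, and 4 libraries of WT HSCs with no FSC-A gate in their labels, which come in another unit and are given apart. Where the scatter gates lay is not given in the sources used here. Whether the libraries of a group came from different animals is not stated in the labels, and the p-values cover only the spread between libraries, which may be technical. In bulk libraries such as these, fewer cells of a type and less RNA per cell cannot be told apart. Values scaled to the reads of a library are shares of its RNA and do not give amounts per cell.

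The estimated depth was 65.7 M to 85.2 M reads for the FSC-A High libraries, and for the FSC-A Low libraries it was 69.4 M to 98.2 M. The sorted phenotype was visible in both gates: Kit, which was lower in FSC-A High, averaged 20.9 ± 3.37 RPKM in FSC-A High and 54.7 ± 6.22 RPKM in FSC-A Low (adjusted p = 0.000331), Ly6a, which encodes Sca1, averaged 27.4 ± 12.6 RPKM in FSC-A High and 12.85 ± 1.59 RPKM in FSC-A Low, and Cd48 averaged 1.375 ± 1.38 RPKM in FSC-A High and 1.26 ± 0.4265 RPKM in FSC-A Low (SD, n = 4 and 3, here and below). Slamf1, which encodes CD150, averaged 6.24 ± 2.58 RPKM in FSC-A High and 8.825 ± 2.48 RPKM in FSC-A Low. Its lowest value was 2.83 RPKM, in FSC-A High library 4. Other differences moved with the gates. All 8 cell cycle markers were higher in FSC-A High, where their summed level was 1083 to 1256 RPKM, against 30.9 to 67.5 RPKM in FSC-A Low. Of 8 HSC identity genes 1 was higher and 5 were lower in FSC-A High, with sums of 281 to 377 RPKM in FSC-A High and 437 to 565 RPKM in FSC-A Low. Of 10 erythroid markers 6 stayed below 1 RPKM in every library, Slc4a1 among them at 0, 1 rose (Hbb-bt), 1 fell (Rhag) and the sums were 110 to 237 RPKM in FSC-A High and 73.5 to 104 RPKM in FSC-A Low. The part of these differences in the carrier results was not tested.

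Among the 138 genes, 5 were higher and 27 were lower in FSC-A High (limma on log2(RPKM + 1), Benjamini-Hochberg adjusted p below 0.05 over all 10619 genes tested), and 106 did not pass. That is 3.62% higher and 19.6% lower, against 15.6% higher and 11.7% lower, or 27.3% in either direction, among all genes tested. Adjusted p-values below are from this fit, and coordinates are RefSeq gene spans on GRCm38.p6, the mouse assembly of mm10. The 5 that rose were Slc66a1, Slc29a1, Slc43a3, Slc39a1 and Slc24a5. The median log2 difference, FSC-A High minus FSC-A Low, was -0.27 over the 138 genes and -0.04 over all genes tested. In 44 of the 138 genes the difference was positive and in 94 it was negative. The 4 FSC-A High libraries all lay above the 3 FSC-A Low libraries for 5 of these genes and all below them for 33, where 18.9% and 16% of all genes tested did so. The calls that passed came at different sizes: 21 of the 32 were at least 2-fold on this scale, 3 of them higher and 18 lower.

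The names of 5 of the 138 genes are not those of carriers: Slc9a3r1 and Slc9a3r2 encode scaffold proteins that bind sodium-proton exchangers, and Slc4a1ap, Slc7a6os and the pseudogene Slc2a4rg-ps carry the prefix for other reasons. The other 133 are carriers or are placed in carrier families. 95 of the 138 reached 1 RPKM in all 7 libraries and 43 in 3 to 6. Slc7a1, Slc12a2 and Slc23a2 met the rule through FSC-A Low libraries alone and Slc18b1 through FSC-A High libraries alone, so their place in the set and their difference are tied. Of these, Slc7a1 and Slc12a2 are among the genes called lower. Slc41a1, Slc35a3 and Slc18a1 were among those that met it with 1 FSC-A High library beside the 3 FSC-A Low ones. Just inside the threshold, the third highest of the 7 libraries was 1.03 RPKM for Slc23a2, 1.05 RPKM for Slc27a3 and 1.08 RPKM for Slc6a9. Just outside it were Slc40a1, the iron exporter ferroportin, at 0.985 RPKM, Slc38a9 at 0.904 RPKM and Slc4a7 at 0.875 RPKM. The zinc exporter Slc30a1 was at or below 0.174 RPKM in every library and the cystine transporter Slc7a11 at or below 0.178 RPKM.

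**Figure D1:**
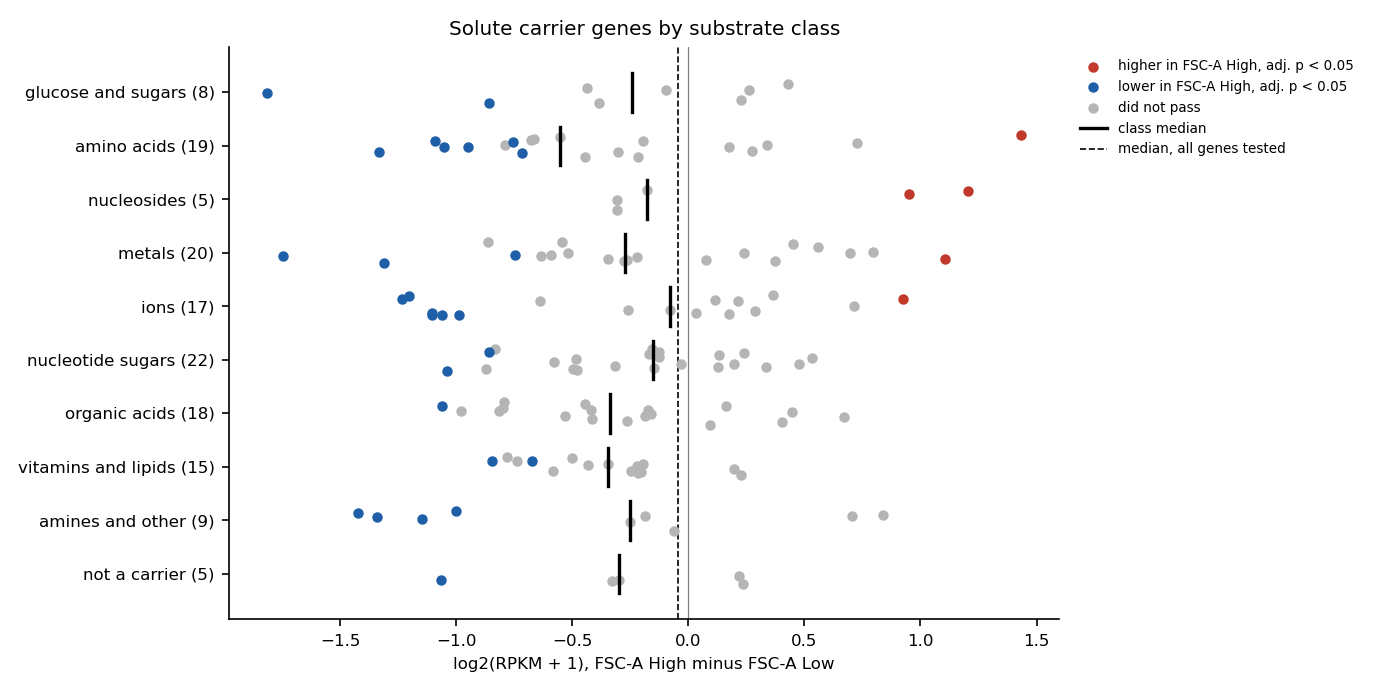
Log2 difference in RPKM + 1, FSC-A High minus FSC-A Low, of each of the 138 Slc genes (points), grouped by substrate class with the number of genes in brackets. Black bars are class medians and the dashed line is the median of all genes tested (-0.04). Points that passed at an adjusted p below 0.05 are red where higher in FSC-A High (5) and blue where lower (27). The amino acid median lies at -0.55, the lowest of the classes as deposited, and 6 of the 17 ion carriers passed as lower. With the trend over transcript length and GC content removed, the amino acid median was -0.29. That of vitamins and lipids was then lower, at -0.39.

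The values scale each library as deposited. With each library scaled to its total instead, the median of all genes tested moved to -0.30 and that of the 138 genes to -0.53, with 4 of the 138 higher and 39 lower (9.21% and 21.4% of all genes), and the 27 called lower before were among the 39. The differences also followed transcript length. The median length of the transcripts was 2972 bases over the 138 genes and 2544 bases over all genes tested, and it was 1954 bases for the 5 that rose and 3470 bases for those that fell. When the trend over length and GC content was removed within each library, the median of the 138 genes was -0.10 and that of all genes -0.02, and 4 rose and 10 fell (9.33% and 8.16% of all genes). All 5 that rose and all 26 that fell and had a length kept their sign. The calls of 4 of the 5 that rose were kept, and of 9 of the 26 that fell. Those 9 were Slc1a5, Slc2a3, Slc30a9, Slc30a5, Slc39a8, Slc18a1, Slc18a2, Slc14a1 and Slc9a3r2, so the other calls of lower levels described below did not pass in that fit or, for Slc9a8, were not tested in it.

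**Figure D2:**
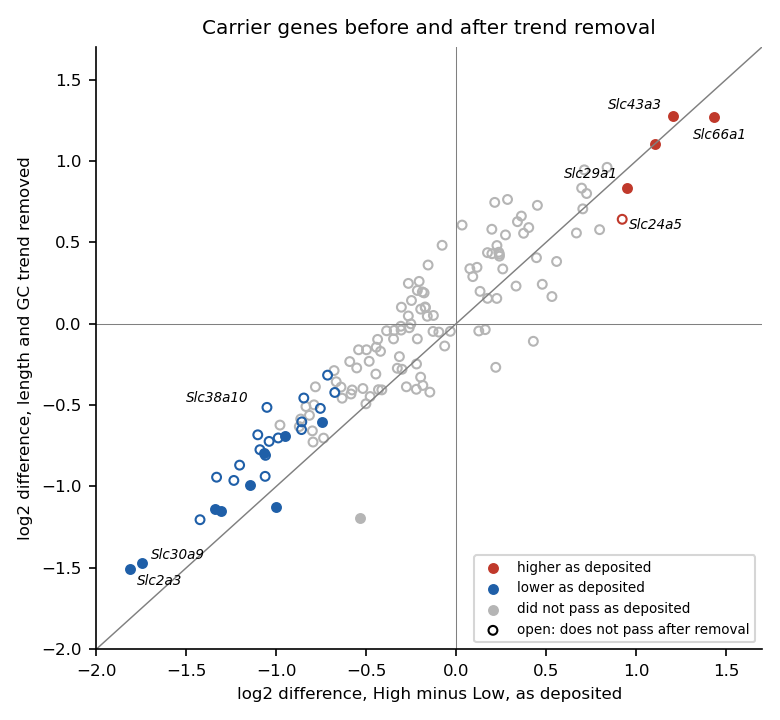
Log2 difference, FSC-A High minus FSC-A Low, of the Slc genes with a known transcript length, as deposited (x axis) and after the trend over transcript length and GC content was removed within each library (y axis); the diagonal marks equal values. Filled points pass at an adjusted p below 0.05 after removal, open points do not. Most points lie above the diagonal. Slc2a3 and Slc30a9 stay lowest, and Slc24a5 is the red open point.

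Across settings, 7 of the 32 calls passed in each of these alternatives (each library left out in turn, length and GC trend removed, library totals, no filter on low values). These were Slc29a1, Slc43a3, Slc39a1 and Slc66a1, which rose, and Slc1a5, Slc2a3 and Slc30a9, which fell. 14 calls passed with every single library left out, and 18 did not pass in at least 1 of these fits. The 14 were those 7 and Slc7a1, Slc38a10, Slc20a2, Slc18a1, Slc18a2, Slc27a1 and Slc9a3r2. These fits kept the genes that met the level rule on all 7 libraries. Slc7a1 met that rule through FSC-A Low libraries alone, and with any of those left out it would fall short of the rule. The libraries carry no strand, and 8 of the 32 genes share at least 100 exon bases with another gene. Among them are Slc24a5, with 39.5% of its exon bases, and, with between 2.12% and 8.31%, Slc29a1, Slc2a1, Slc38a10, Slc18a2, Slc15a4 and Slc37a1. Reads of the other gene cannot be told apart there.

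Slc39a1 and Slc30a9 are zinc carriers that moved in opposite directions. Slc2a1 and Slc38a2 are uptake carriers for glucose and amino acids that were both lower. The promoters of these 4 called genes are printed here. Each is the 250 bases before a transcript start from RefSeq (GRCm38.p6), which for Slc39a1 takes in the first 2 bases of the gene span given below, 5′ to 3′ on the gene's strand: chr3:90247942-90248191 (plus strand), chr5:67306705-67306954 (plus), chr4:119108495-119108744 (plus) and chr15:96699729-96699978 (minus). Capitals mark matches, on either strand, to the GC box GGGCGG and to the CCAAT box.
Slc39a1: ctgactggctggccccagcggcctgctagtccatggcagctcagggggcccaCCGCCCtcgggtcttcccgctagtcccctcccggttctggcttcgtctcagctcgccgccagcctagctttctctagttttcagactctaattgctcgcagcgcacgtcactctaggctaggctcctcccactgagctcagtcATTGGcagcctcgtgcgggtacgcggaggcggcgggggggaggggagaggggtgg
Slc30a9: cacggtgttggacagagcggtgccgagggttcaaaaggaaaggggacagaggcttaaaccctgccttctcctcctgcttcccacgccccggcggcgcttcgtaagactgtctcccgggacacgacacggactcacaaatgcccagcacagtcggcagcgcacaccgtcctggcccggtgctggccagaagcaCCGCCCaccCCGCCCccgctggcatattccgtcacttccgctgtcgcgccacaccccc
Slc2a1: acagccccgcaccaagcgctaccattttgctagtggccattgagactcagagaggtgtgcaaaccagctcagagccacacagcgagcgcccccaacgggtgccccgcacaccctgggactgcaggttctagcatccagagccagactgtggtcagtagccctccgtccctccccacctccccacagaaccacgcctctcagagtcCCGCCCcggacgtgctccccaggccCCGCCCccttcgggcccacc
Slc38a2: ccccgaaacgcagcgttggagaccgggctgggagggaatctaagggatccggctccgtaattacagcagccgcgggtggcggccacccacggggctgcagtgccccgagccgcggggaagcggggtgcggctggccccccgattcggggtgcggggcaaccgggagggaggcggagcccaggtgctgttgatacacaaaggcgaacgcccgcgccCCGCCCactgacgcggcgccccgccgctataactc
Slc39a1 has 1 GC box and 1 CCAAT box in this stretch, Slc30a9 and Slc2a1 have 2 GC boxes each, and Slc38a2 has 1. A promoter was found for 99 of the 138 genes, and GGGCGG stood in 73 of them, in 32.7% of all 32851 promoters and in 64.5% of the promoters of genes tested. It stood in 3 of the 4 promoters of genes that rose and in 16 of the 17 of genes that fell. CCAAT stood in 38 of the 99, in 33.8% of all promoters and in 41.1% of those of genes tested. The E-box CACGTG stood in 14 of the 99, in 6.02% of all and in 10% of those of genes tested. TGATGNAA, the core of the amino acid response element, stood in 1 of the 99, in 3.45% of all and in 2.25% of those of genes tested, and Slc38a2 had none in this window. A match describes these letters only.

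Of 5 nucleoside and nucleobase carriers 2 rose, none fell and 3 did not pass, with a class median of -0.18, and of 0.19 after the length and GC trend was removed. Their summed level was 216 ± 18.2 RPKM in FSC-A High and 116 ± 11.8 RPKM in FSC-A Low (SD, n = 4 and 3), most of it from 1 gene. Slc29a1 (chr17:45585200-45599618) encodes the equilibrative nucleoside transporter ENT1, which lets nucleosides cross the plasma membrane for salvage. It had 179.7, 168, 174 and 137 RPKM in the 4 FSC-A High libraries, against 77.9, 74.2 and 104 RPKM in the 3 FSC-A Low libraries. Every FSC-A High library was above every FSC-A Low library, and the log2 difference was 0.95 (SE 0.16, adjusted p = 0.00101). Slc43a3 (chr2:84936545-84958509) encodes a transporter of purine nucleobases. It had 49.0, 31.1, 33.0 and 48.8 RPKM in the 4 FSC-A High libraries, against 18.8, 17.7 and 13.7 RPKM in the 3 FSC-A Low libraries, again without overlap, and a log2 difference of 1.20 (SE 0.23, adjusted p = 0.00201). The concentrative nucleoside carrier Slc28a2, the second equilibrative carrier Slc29a2 and the lysosomal Slc29a3 had log2 differences of -0.31, -0.31 and -0.18, and their libraries overlapped. Of the 9 genes of nucleoside salvage tested, 2 rose and none fell, where 15.6% of all genes tested rose and 11.7% fell. The counts in this and the similar gene lists below were not tested against those shares. Thymidine kinase Tk1, whose level follows S phase, averaged 101.5 ± 15.2 RPKM in FSC-A High and 12.1 ± 4.91 RPKM in FSC-A Low, and the purine salvage enzyme Hprt averaged 64.5 ± 12.7 RPKM in FSC-A High and 40.5 ± 8.25 RPKM in FSC-A Low (log2 differences 3.04 and 0.65, adjusted p = 8.01e-06 and 0.0299). After the length and GC trend was removed, the Hprt difference was 0.03 and no longer passed.

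**Figure D3:**
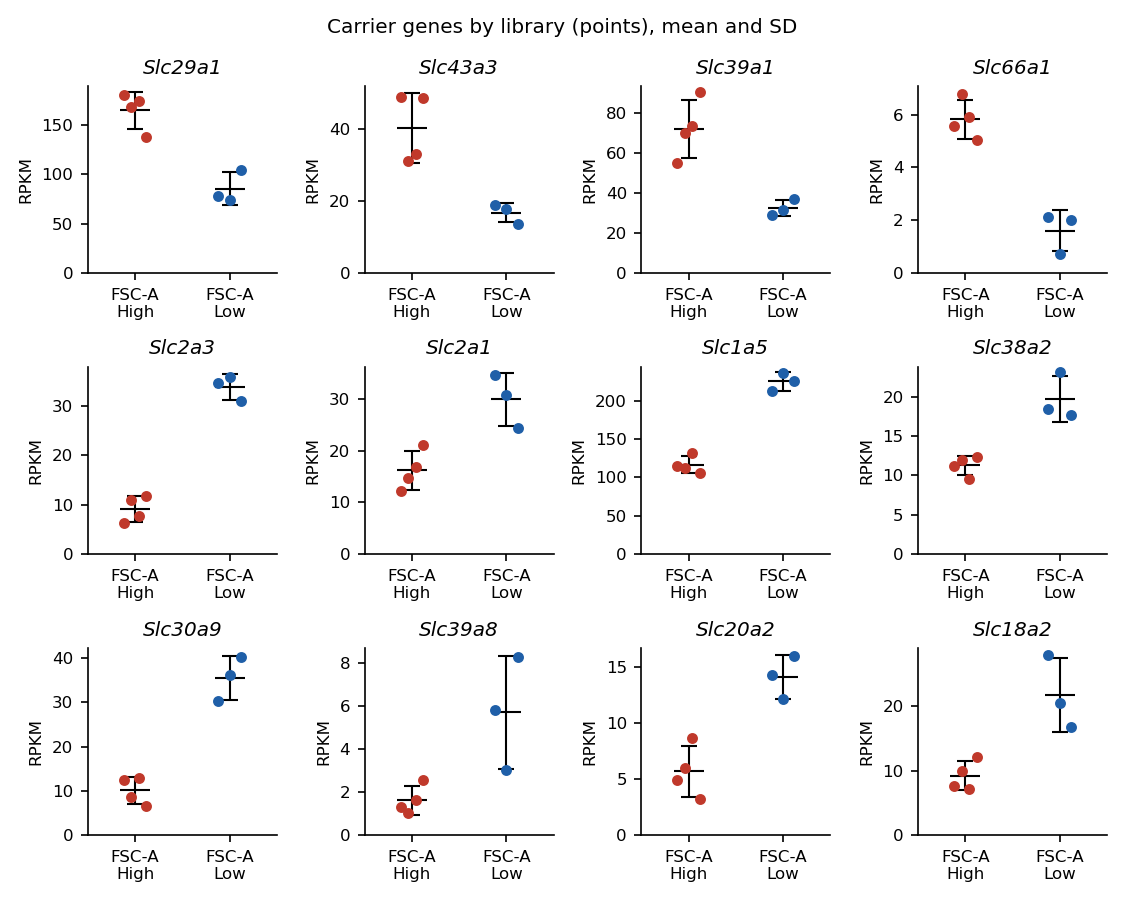
RPKM of 12 Slc genes in each library (points), FSC-A High on the left and FSC-A Low on the right, with the mean and SD (n = 4 and 3); each panel has its own axis from 0. The 4 genes of the top row are higher in FSC-A High and the 8 below are lower, and in each panel the points of the groups do not overlap.

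Of 8 carriers of glucose and other sugars 2 fell, none rose and 6 did not pass, and the class median was -0.24. The 6 lay between -0.44 and 0.43 on the log2 scale. Slc2a3 (chr6:122727809-122802363), the high-affinity glucose transporter GLUT3, had 6.20, 10.9, 7.72 and 11.9 RPKM in the 4 FSC-A High libraries, against 34.7, 35.95 and 31.05 RPKM in the 3 FSC-A Low libraries. The highest FSC-A High library stood well under the lowest FSC-A Low library, and the log2 difference of -1.82 (SE 0.25, adjusted p = 0.00027) was the most negative of the 138 genes. Slc2a1 (chr4:119108745-119137330), the basal glucose transporter GLUT1, had 12.3, 14.6, 16.8 and 21.05 RPKM in the 4 FSC-A High libraries, against 34.5, 30.8 and 24.4 RPKM in the 3 FSC-A Low libraries. Its libraries did not overlap either, with a log2 difference of -0.86 (SE 0.23, adjusted p = 0.0163); after the length and GC trend was removed the difference was -0.60 (adjusted p = 0.103). Slc50a1, which encodes SWEET1, a sugar carrier found mainly in the Golgi, had the highest level of all 138 genes. It had 209, 239.9, 229 and 242 RPKM in the 4 FSC-A High libraries, against 134.5, 211 and 174.5 RPKM in the 3 FSC-A Low libraries, the groups overlapped slightly, and the log2 difference of 0.43 (SE 0.16, adjusted p = 0.0574) did not pass. Slc50a1 made up most of the summed level of the class, which was 278 ± 20.6 RPKM in FSC-A High and 260 ± 34.9 RPKM in FSC-A Low. Of the 6 other genes of glucose use tested, 2 fell and none rose (11.7% and 15.6% of all genes tested). Hexokinase Hk1, which traps glucose in the cell, averaged 10.8 ± 2.97 RPKM in FSC-A High and 22.5 ± 1.93 RPKM in FSC-A Low, and Hif1a, the oxygen-sensitive activator of glucose transporter genes, averaged 6.51 ± 2.71 RPKM in FSC-A High and 17.4 ± 2.75 RPKM in FSC-A Low (log2 differences -1.02 and -1.35, adjusted p = 0.0101 and 0.00722). With the length and GC trend removed, Hk1 differed by -0.57 and did not pass (adjusted p = 0.149), and Hif1a passed at -1.15 (adjusted p = 0.0201).

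Of 19 amino acid carriers 1 rose, 6 fell and 12 did not pass, with a class median of -0.55 and 14 negative differences. The class median was -0.29 after the length and GC trend was removed. The 12 lay between -0.79 and 0.72 on the log2 scale. Their summed level was 290.0 ± 14.5 RPKM in FSC-A High and 459 ± 31.6 RPKM in FSC-A Low. Slc1a5 (chr7:16781334-16798274) encodes ASCT2, which takes up glutamine and other neutral amino acids. It had 115.5, 112.5, 132 and 106 RPKM in the 4 FSC-A High libraries, against 213, 237 and 227 RPKM in the 3 FSC-A Low libraries. It made up most of the class difference in the sum, its libraries did not overlap, and the log2 difference was -0.95 (SE 0.13, adjusted p = 0.00027). The cationic amino acid carrier Slc7a1 (chr5:148327410-148399904), which imports arginine and lysine, had 0.450, 0.5525, 0.1325 and 0.569 RPKM in the 4 FSC-A High libraries, against 1.835, 3.43 and 2.59 RPKM in the 3 FSC-A Low libraries. It was below 1 RPKM in every FSC-A High library and above it in every FSC-A Low library, with a log2 difference of -1.33 (SE 0.32, adjusted p = 0.0084). Slc7a1 met the level rule through FSC-A Low libraries alone, so its separation of the groups is tied to that rule.

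All 4 genes of the Slc38 family among the 138 fell. Slc38a2, which encodes the sodium-coupled neutral amino acid transporter SNAT2, had 11.2, 11.99, 9.55 and 12.3 RPKM in the 4 FSC-A High libraries, against 18.4, 23.1 and 17.7 RPKM in the 3 FSC-A Low libraries. Its log2 difference was -0.76 (SE 0.23, adjusted p = 0.0262). Slc38a1, which encodes SNAT1, had 13.96, 17.5, 12.1 and 18.4 RPKM in the 4 FSC-A High libraries, against 30.6, 23.3 and 23.9 RPKM in the 3 FSC-A Low libraries, and a log2 difference of -0.72 (SE 0.23, adjusted p = 0.0334). The libraries did not overlap for either gene. Slc38a10 had 12.95, 16.7, 7.60 and 12.5 RPKM in the 4 FSC-A High libraries, against 24.0, 25.7 and 28.5 RPKM in the 3 FSC-A Low libraries, without overlap, and a log2 difference of -1.05 (SE 0.26, adjusted p = 0.00982). Slc38a7, a lysosomal exporter of glutamine and asparagine, differed by -1.09 on the log2 scale with overlapping libraries. None of the 4 passed once the length and GC trend was removed; Slc38a10 then differed by -0.51, Slc38a2 by -0.52 and Slc38a1 by -0.32.

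The amino acid carrier that rose was Slc66a1 (chr4:139294030-139310760), a lysosomal exporter of cationic amino acids. It had 5.58, 6.78, 5.91 and 5.03 RPKM in the 4 FSC-A High libraries, against 2.10, 0.7065 and 2.00 RPKM in the 3 FSC-A Low libraries, without overlap. Its log2 difference of 1.44 (SE 0.33, adjusted p = 0.00611) was the most positive of the 138 genes. Slc3a2, the heavy chain that several of these carriers need to reach the cell surface, averaged 54.2 ± 15.8 RPKM in FSC-A High and 61.4 ± 14.1 RPKM in FSC-A Low and did not pass (log2 difference -0.20, adjusted p = 0.57). Its large neutral amino acid partner Slc7a5 had 1.23, 2.20, 2.56 and 1.75 RPKM in the 4 FSC-A High libraries, against 3.235, 1.66 and 7.82 RPKM in the 3 FSC-A Low libraries, where 1 FSC-A Low library was far above the others, and did not pass (adjusted p = 0.24). Among 9 genes of the amino acid stress response and glutamine metabolism, 2 fell and none rose (11.7% and 15.6% of all genes tested). The 2 were Trib3, a pseudokinase induced by that response, and Eif2ak4, the amino acid sensor kinase GCN2. Their log2 differences were -1.11 and -1.25 (adjusted p = 0.0268 and 0.0281). Neither passed with the length and GC trend removed, at -1.03 and -0.88 (adjusted p = 0.0571 and 0.122). The response factor Atf4 and its target Asns averaged 21.5 and 28.7 RPKM in FSC-A High and 14.7 and 17.2 RPKM in FSC-A Low, and did not pass.

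Of 20 metal carriers 1 rose, 3 fell and 16 did not pass, with a class median of -0.27, and the 16 lay between -0.86 and 0.80 on the log2 scale. Their summed level was 315 ± 15.2 RPKM in FSC-A High and 330 ± 26.1 RPKM in FSC-A Low, so the class as a whole differed by less than the spread between libraries. Slc39a1 (chr3:90248190-90253613) encodes ZIP1, a zinc importer of the plasma membrane. It had 54.7, 69.7, 73.2 and 90.1 RPKM in the 4 FSC-A High libraries, against 29.1, 31.6 and 37.0 RPKM in the 3 FSC-A Low libraries. The libraries did not overlap and the log2 difference was 1.10 (SE 0.19, adjusted p = 0.00116). Slc30a9 (chr5:67306955-67356142), placed in the zinc exporter family and in human cells linked to mitochondrial zinc, had 12.5, 8.69, 12.8 and 6.57 RPKM in the 4 FSC-A High libraries, against 30.3, 36.1 and 40.3 RPKM in the 3 FSC-A Low libraries. The FSC-A Low libraries were all more than 30 RPKM, and the log2 difference was -1.75 (SE 0.26, adjusted p = 0.000415).

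Slc30a5, which loads zinc into the secretory pathway, had 28.5, 23.4, 26.7 and 21.0 RPKM in the 4 FSC-A High libraries, against 38.3, 40.2 and 48.75 RPKM in the 3 FSC-A Low libraries. Its log2 difference was -0.75 (SE 0.19, adjusted p = 0.0121), without overlap. Slc39a8, which encodes the zinc and manganese importer ZIP8, had 1.29, 1.00, 1.62 and 2.56 RPKM in the 4 FSC-A High libraries, against 5.80, 3.03 and 8.26 RPKM in the 3 FSC-A Low libraries. The groups did not overlap, though the FSC-A Low libraries were spread widely, and the log2 difference was -1.31 (SE 0.37, adjusted p = 0.0186). Of the 10 Slc39 importers 1 rose, 1 fell and 8 did not pass, and of the 4 Slc30 genes 2 fell and 2 did not pass. The heme transporter Slc48a1 averaged 72.0 ± 10.7 RPKM in FSC-A High and 61.6 ± 16.6 RPKM in FSC-A Low, the highest level of the class with Slc39a1, and did not pass (adjusted p = 0.403). Slc11a2, the iron importer DMT1, had 4.13, 5.86, 6.62 and 2.82 RPKM in the 4 FSC-A High libraries, against 15.2, 4.58 and 6.47 RPKM in the 3 FSC-A Low libraries, with 1 FSC-A Low library apart, and did not pass (adjusted p = 0.258).

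Of 7 iron and heme genes tested beside the carriers, 2 rose, 2 fell and 3 did not pass. Among all genes tested 15.6% rose and 11.7% fell. Fth1 and Ftl1, the subunits of the iron store ferritin, differed by 0.80 and 0.60 on the log2 scale (adjusted p = 0.000326 and 0.00236). Transferrin receptor 2 (Tfr2) and the iron-regulatory protein Aco1 differed by -0.97 and -0.99 (adjusted p = 0.0112 and 0.0219). The transferrin receptor Tfrc stayed at or below 1.48 RPKM in all 7 libraries and was not tested. None of these 4 calls passed after the length and GC trend was removed, when Fth1 differed by 0.17 and Tfr2 by -0.64. Neither of the zinc partners tested, the metallothionein Mt1 and the zinc-sensing factor Mtf1, passed.

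Of 17 carriers of inorganic ions 1 rose, 6 fell and 10 did not pass, and the 10 lay between -0.64 and 0.71 on the log2 scale. The class median was -0.08, since differences lay on both sides of 0, and it was 0.39 after the length and GC trend was removed; this class had the longest median transcript, 3995 bases. Slc20a2 (chr8:22476700-22569616), the sodium-phosphate carrier PiT2, had 4.87, 5.97, 8.635 and 3.17 RPKM in the 4 FSC-A High libraries, against 14.3, 12.1 and 15.9 RPKM in the 3 FSC-A Low libraries. Its libraries did not overlap and the log2 difference was -1.24 (SE 0.31, adjusted p = 0.0112). The related phosphate carrier Slc20a1 averaged 4.575 ± 1.39 RPKM in FSC-A High and 5.93 ± 2.74 RPKM in FSC-A Low and did not pass (adjusted p = 0.636).

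Slc9a8, a sodium-proton exchanger of the Golgi, had 2.44, 2.51, 1.91 and 2.48 RPKM in the 4 FSC-A High libraries, against 4.25, 6.11 and 8.79 RPKM in the 3 FSC-A Low libraries. Its log2 difference was -1.10 (SE 0.32, adjusted p = 0.0216), without overlap. Cation-chloride carriers of the Slc12 family, which set cell chloride and volume, were among those that fell. Slc12a2, the sodium-potassium-chloride importer NKCC1, had 0.215, 0.165, 0.0944 and 0.378 RPKM in the 4 FSC-A High libraries, against 1.23, 1.75 and 1.26 RPKM in the 3 FSC-A Low libraries. The groups did not overlap, with a log2 difference of -0.99 (SE 0.30, adjusted p = 0.0277), and it stayed below 1 RPKM in every FSC-A High library. Slc12a2 met the level rule through FSC-A Low libraries alone, so its separation of the groups is tied to that rule. Slc12a7, the potassium-chloride carrier KCC4, differed by -1.10 (-0.68 with the length and GC trend removed), while Slc12a4 and Slc12a9 had log2 differences of 0.29 and 0.21 and did not pass. Slc12a4 averaged 0.939 RPKM in FSC-A High and 0.972 RPKM in FSC-A Low, so its log2 difference and its means differ in sign. Its FSC-A Low libraries had 2.915, 0 and 0 RPKM. Slc12a9 averaged 3.11 ± 1.61 RPKM in FSC-A High and 3.035 ± 3.01 RPKM in FSC-A Low. Slc26a11, a sulfate carrier, differed by -1.06.

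The ion carrier that rose, Slc24a5 (chr2:125068127-125088677), is a potassium-dependent sodium-calcium exchanger known from pigment cells. It had 13.1, 11.85, 13.3 and 20.9 RPKM in the 4 FSC-A High libraries, against 6.34, 7.09 and 8.04 RPKM in the 3 FSC-A Low libraries, without overlap, and a log2 difference of 0.92 (SE 0.27, adjusted p = 0.0218). Of its 2330 exon bases, 921 (39.5%) are also exon of Myef2 on the opposite strand. Myef2 averaged 11.3 RPKM in FSC-A High and 4.72 RPKM in FSC-A Low, and its log2 difference was 1.10 (adjusted p = 0.0109). The call was also lost with library totals and after the length and GC trend was removed. Among 7 tested pumps and regulators of ion transport 3 fell and none rose (11.7% and 15.6% of all genes tested). The calcium pumps Atp2b1 and Atp2a3 were among those that fell, with log2 differences of -1.33 and -0.77 (adjusted p = 0.00257 and 0.0258). Atp2b1 passed with the length and GC trend removed, at -1.07 (adjusted p = 0.0124), and Atp2a3 did not, at -0.26 (adjusted p = 0.439).

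The classes outside these groups had 64 carriers, of which none rose and 9 fell. Of 9 peptide, amine and other carriers 4 fell and 5 did not pass, with a class median of -0.25. The 5 lay between -0.25 and 0.84 on the log2 scale. Slc18a2 (chr19:59260878-59296012), the vesicular monoamine transporter VMAT2, which loads serotonin, histamine and catecholamines into vesicles, had 7.60, 9.97, 7.195 and 12.2 RPKM in the 4 FSC-A High libraries, against 28.0, 20.55 and 16.7 RPKM in the 3 FSC-A Low libraries. The libraries did not overlap and the log2 difference was -1.15 (SE 0.27, adjusted p = 0.00743). Its relative Slc18a1 (VMAT1) had 1.23, 0.341, 0.902 and 0.478 RPKM in the 4 FSC-A High libraries, against 3.34, 4.43 and 2.41 RPKM in the 3 FSC-A Low libraries. Its log2 difference was -1.34 (SE 0.34, adjusted p = 0.0102), without overlap. The urea transporter Slc14a1, which is also carried by red cells, had 3.265, 4.43, 4.51 and 7.53 RPKM in the 4 FSC-A High libraries, against 13.45, 9.78 and 8.75 RPKM in the 3 FSC-A Low libraries, and a log2 difference of -1.001 (SE 0.31, adjusted p = 0.0316). Most of the summed level of the erythroid markers, given above, was Hbb-bt, which averaged 151.5 ± 55.95 RPKM in FSC-A High and 69.2 ± 14.3 RPKM in FSC-A Low and did not pass with the length and GC trend removed (log2 difference 0.34, adjusted p = 0.384). Without Hbb-bt the other 9 summed to 13.0 to 29.0 RPKM in FSC-A High and 20.6 to 27.7 RPKM in FSC-A Low. Most of that was Epor, which averaged 19.9 ± 6.34 RPKM in FSC-A High and 18.8 ± 4.90 RPKM in FSC-A Low. Epor did not pass (log2 difference 0.06, adjusted p = 0.906). Rhag, a membrane protein of red cells, fell with Slc14a1, at 0.520 ± 0.304 RPKM in FSC-A High and 4.18 ± 1.63 RPKM in FSC-A Low (log2 difference -1.73, adjusted p = 0.00304), and the part of red cell RNA in the Slc14a1 result was not tested. Slc15a4, a lysosomal carrier of histidine and peptides, had 11.9, 2.29, 4.35 and 3.74 RPKM in the 4 FSC-A High libraries, against 26.6, 12.6 and 8.63 RPKM in the 3 FSC-A Low libraries. Its groups overlapped in 1 high FSC-A High library, and the log2 difference was -1.42 (SE 0.46, adjusted p = 0.036).

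Of 22 genes placed as nucleotide sugar and sugar phosphate carriers 2 fell and 20 did not pass, with a class median of -0.15. The 20 lay between -0.87 and 0.53. Most of the 22 belong to the Slc35 family, which includes Golgi proteins that supply glycosylation. Slc35d1, which carries UDP-sugars into the endoplasmic reticulum, had 0.558, 1.29, 1.41 and 0.8515 RPKM in the 4 FSC-A High libraries, against 2.55, 3.85 and 3.01 RPKM in the 3 FSC-A Low libraries. Its log2 difference was -1.04 (SE 0.32, adjusted p = 0.0292). Slc37a1, a sugar phosphate exchanger, had 12.04, 10.8, 9.33 and 7.05 RPKM in the 4 FSC-A High libraries, against 15.8, 24.5 and 15.9 RPKM in the 3 FSC-A Low libraries, and a log2 difference of -0.86 (SE 0.27, adjusted p = 0.0304). Neither gene overlapped between groups. The class held several of the most abundant genes: Slc35a4 averaged 80.5 ± 14.7 RPKM in FSC-A High and 113 ± 21.6 RPKM in FSC-A Low and Slc35b2, which brings the sulfate donor PAPS into the Golgi, 76.9 ± 17.1 RPKM in FSC-A High and 86.5 ± 18.9 RPKM in FSC-A Low, and neither passed.

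Of 18 carriers of organic acids, cations and bile acids 1 fell and 17 did not pass, with a class median of -0.34. The 17 lay between -0.98 and 0.67. Slc22a21, a mouse carnitine transporter, had 1.91, 1.45, 1.38 and 2.58 RPKM in the 4 FSC-A High libraries, against 4.32, 4.06 and 6.32 RPKM in the 3 FSC-A Low libraries, and a log2 difference of -1.06 (SE 0.32, adjusted p = 0.0262), without overlap. None of the 8 Slc16 genes passed: the lactate carriers Slc16a1 and Slc16a3 averaged 7.504 ± 3.33 RPKM in FSC-A High and 8.16 ± 2.37 RPKM in FSC-A Low, and 0.767 ± 0.5455 RPKM in FSC-A High and 2.39 ± 2.185 RPKM in FSC-A Low. Of 4 partner genes, Emb, an accessory protein of these carriers, and Ldhb, a lactate dehydrogenase subunit, rose by 0.52 and 0.65 on the log2 scale (adjusted p = 0.036 and 0.00672), and the accessory protein Bsg and Ldha did not pass. Among all genes tested 15.6% rose. With the length and GC trend removed, Emb passed at 0.59 (adjusted p = 0.0278), Ldhb did not, at 0.19 (adjusted p = 0.385), and Bsg passed as lower, at -0.33 (adjusted p = 0.0408). Slc22a17 and Slc10a3, with the highest levels of the class, did not pass (log2 differences -0.98 and -0.19).

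Of 15 carriers of vitamins, choline and lipids 2 fell and 13 did not pass, with a class median of -0.35. The class median was -0.39 after the length and GC trend was removed. The 13 lay between -0.78 and 0.23. Slc27a1, which encodes the fatty acid transport protein FATP1, had 11, 15.2, 14.6 and 17.3 RPKM in the 4 FSC-A High libraries, against 25.65, 25.3 and 29.05 RPKM in the 3 FSC-A Low libraries. Slc44a2, a choline transporter, had 31.5, 36.1, 32.5 and 32.3 RPKM in the 4 FSC-A High libraries, against 45.8, 49.0 and 67.7 RPKM in the 3 FSC-A Low libraries. Both were without overlap, with log2 differences of -0.85 (SE 0.22, adjusted p = 0.0126) for Slc27a1 and -0.67 (SE 0.19, adjusted p = 0.017) for Slc44a2. Neither passed with the length and GC trend removed, when Slc27a1 differed by -0.46 and Slc44a2 by -0.42 (adjusted p = 0.209 and 0.133). The folate carrier Slc19a1 averaged 33.7 ± 2.59 RPKM in FSC-A High and 40.0 ± 9.88 RPKM in FSC-A Low and did not pass (adjusted p = 0.453). Of the 5 genes that only carry the prefix, the scaffold Slc9a3r2 fell, with 27.9, 48.6, 42.3 and 24.8 RPKM in the 4 FSC-A High libraries, against 58.8, 82.3 and 82.0 RPKM in the 3 FSC-A Low libraries, and a log2 difference of -1.07 (SE 0.24, adjusted p = 0.00605). Its relative Slc9a3r1 averaged 62.05 ± 8.24 RPKM in FSC-A High and 77.7 ± 5.60 RPKM in FSC-A Low and did not pass (adjusted p = 0.152), although its libraries did not overlap.

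In the WT HSC libraries, levels are whole reads recovered from the deposited values and expressed as RPKM, and no difference from the gated libraries was tested. The reads recovered were 30889443, 21307178, 27206879 and 29952311 per library. A level could be given for 136 of the 138 genes, with a median of 6.61 RPKM, and 100 of them reached 1 RPKM in all 4 libraries. 4 reached 1 RPKM in none (Slc36a4, Slc5a2, Slc22a4 and Slc27a3), and Slc5a2 and Slc22a4 had 0 reads in all 4. The sugar carrier Slc50a1 was again the most abundant, at 266, 381, 366 and 255.5 RPKM (317 ± 65.4, SD, n = 4). Slc3a2, the heavy chain of amino acid carriers, followed with 177, 155, 160.0 and 198 RPKM. These libraries did not overlap with those of Slc50a1. With the longest transcript of each gene as its length, 10 levels moved by more than 1.5 times: Slc3a2 then averaged 112 RPKM, against 173 RPKM as given here, Slc14a1 33.8 RPKM against 60.5 RPKM, and Slc66a2 28.1 RPKM against 47.9 RPKM, and Slc3a2 still came second.

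Below them, the spread between libraries covered the gaps between neighbours (RPKM, mean ± SD, n = 4 in this paragraph). The Slc35 family gene Slc35a4 averaged 86.7 ± 15.1, the scaffold Slc9a3r1 81.3 ± 31.8, the heme transporter Slc48a1 77.5 ± 17.6, the nucleoside carrier Slc29a1 72.2 ± 18.96, and the glutamine carrier Slc1a5 62.9 ± 25.5. Slc14a1, the urea transporter, had 41.9, 41.75, 36.1 and 122 RPKM, and Slc2a1, the glucose transporter, 25.4, 32.2, 25.9 and 93.2 RPKM; in both the fourth library was far above the other 3. That library also had fewer genes above 0, 11384 against 12909 to 13368 in the others, and 15.2% of its reads on the ribosomal precursor Rn45s, against 3.06% to 5.26%. Among the other genes called between the gates, Slc38a1 averaged 31.3 ± 8.81, Slc38a2 29.3 ± 3.20, Slc18a2 27.1 ± 9.95, Slc2a3 25.4 ± 14.4, Slc39a1 23.8 ± 7.89 and Slc43a3 44.3 ± 8.03. Across the 136 genes, the rank order by level in the gated and the WT libraries had a Spearman rho of 0.82, as a description across genes that share lengths, and 15 of the 20 most abundant were the same in both.

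**Figure D4:**
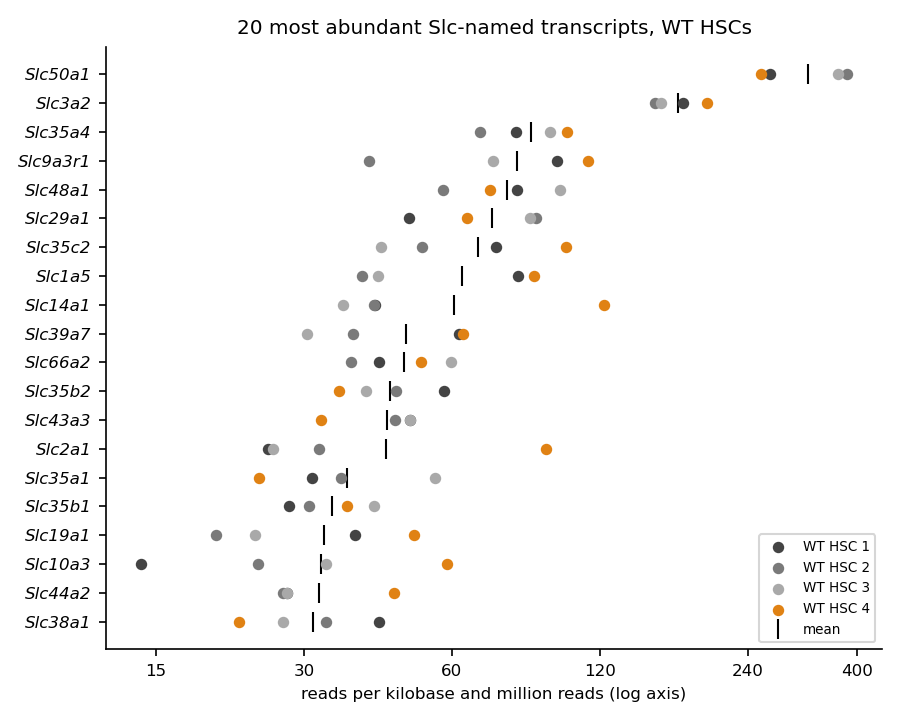
RPKM (log axis) of the 20 most abundant Slc-named transcripts in the 4 WT HSC libraries, 1 point per library, the fourth in orange, with the mean as a black bar, on the transcript lengths used in the text. Slc50a1 and Slc3a2 lie apart from the rest, and the fourth library stands to the right for Slc14a1, Slc2a1 and Slc44a2.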

How the data were processed

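RNA of sorted HSCs was measured in 11 libraries, grouped by their titles in the labels. The deposited FSC-A files give 1 value per RefSeq transcript for 33984 transcripts, with no unit in labels or headers; the values were taken as RPKM made by the authors, since value times length sums to nearly a constant in each library. FPKM would look the same, and depth was estimated from the step between low values. The deposited WT files hold a signal for each of 23420 gene symbols that has the form of counts divided by a size factor: 100% of values became whole within 0.01. A count test on these reads has no comparison to make, as they form 1 group. STAR, DESeq2 and the build mm10 are named, per the submitters' processing notes, with no roles or versions; how reads on shared exons were counted is not given in the sources used here.

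Names came from RefSeq for GRCm38.p6 (32263 transcripts by identifier, 1328 by symbol, 393 kept the file's name), and lengths and exons from GENCODE. Each of 24064 genes was represented by its transcript of highest mean. The 10619 genes that reached 1 RPKM in 3 or more gated libraries were fitted with limma 3.58.1 (R 4.3.3, eBayes with trend) on log2(RPKM + 1), FSC-A High minus FSC-A Low, with Benjamini-Hochberg adjustment; the fit was tested on simulated data. Differences on this scale understate changes of genes near 1 RPKM. Substrate classes followed family numbers, with single genes placed by substrate where a family spans several (among them Slc43a3 and Slc66a1). Named genes were, per class, up to 4 called genes of smallest p in each direction, the 2 of highest level, a list of known carriers and the genes next to the threshold; other called genes are given by their difference. Results of some single genes are not reported here; counts and medians include them. Members, classes and lists were chosen with earlier results of these data known. Alternatives were other scalings (TMM from edgeR 4.0.16 among them), pseudocounts, filters, transcripts summed, a block, a length and GC trend, and each library left out.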

Additional observations from a re-analysis of the deposited data

Results flagged for a closer look

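A library far from the other 3 of its group was looked for in 85 groups of 4 libraries, over the genes described with per-library values. It was found in 6, and chance gives it in about 1 in 20 groups. In WT HSCs 4 of the 6 came from the fourth library: the urea transporter Slc14a1 at 122.1 RPKM against 36.1 to 41.9 in the other 3, the glucose transporter Slc2a1 at 93.2 against 25.4 to 32.2, the choline transporter Slc44a2 at 45.8 against 27.3 to 27.7, and the fatty acid carrier Slc27a1 at 31.1 against 10.1 to 13.4. In FSC-A High, Slc24a5 had 20.9 RPKM in library 4 against 11.9 to 13.3 RPKM in the other 3, and Slc9a8 had 1.91 RPKM in library 3 against 2.44 to 2.51 RPKM.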

How the results depend on the processing

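Over 35 named genes, 688 comparisons with an alternative setting kept direction and side of the threshold in 584, kept only the direction in 98 and reversed in 6; no named call reversed. The genes that reversed had not passed: Slc16a1 (0.052 with the replicate block, 0.045 with the length and GC trend removed, 0.28 with both, and -0.38 to 0.052 with 1 library left out) and Slc20a1 (-0.61 to 0.0067 with 1 library left out). Counts over all genes were 978 higher and 2272 lower with library totals, 1029 and 477 with no filter on low values, 976 and 854 with the trend removed, 741 and 643 with trend and block, and 1302 to 1628 and 879 to 1152 with 1 library left out. Of the Slc genes, 8 were lower with no filter, 10 with the trend removed, 8 with trend and block and 17 to 22 with 1 library left out; the 17 came without FSC-A High 3 and without FSC-A Low 1. No filter raises the number of genes tested, and a left-out library lowers the number of samples. The cause of these and of the other shifts was not tested. Same-numbered libraries did not deviate together (correlations -0.03, 0.06 and 0.00 for numbers 1 to 3). This cannot show whether they shared an animal or a sort, which the labels do not state. With the replicate block 5 Slc genes were higher and 19 lower, 22 of the 32 calls passed, and 1460 and 971 genes of all passed. With trend and block, Slc66a1 was at 1.29 and no longer passed.

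The median over the Slc genes was -0.22 with a filter at 5 RPKM, -0.53 with library totals, -0.34 with the upper quartile, -0.31 and -0.16 with pseudocounts of 0.5 and 5, -0.10 with the trend removed, -0.14 with trend and block and -0.33 to -0.25 with 1 library left out. Class medians moved as follows, in the order 5 RPKM filter, library totals, pseudocount 5, trend removed, trend and block, where each moved. Amino acid carriers gave -0.72, -0.85, -0.36, -0.29 and -0.32 (-0.68 to -0.31 with 1 library left out). Sugar carriers gave 0.23, -0.40, -0.058, -0.074 and -0.094, with -0.096 at a mean of at least 1 RPKM (-0.34 to -0.044 with 1 library left out). Metal carriers gave -0.072 (filter), -0.56 (totals), -0.10 (trend) and -0.10 (trend and block). Nucleoside carriers gave 0.95 (filter), 0.19 (trend) and 0.31 (trend and block), and -0.43 to 0.12 with 1 library left out. Ion carriers gave 0.39 with the trend removed and -0.25 to 0.05 with 1 library left out. Nucleotide sugar carriers gave -0.43 with totals. Organic acid carriers gave -0.57 (totals), -0.17 (pseudocount) and -0.19 (trend and block). Vitamin and lipid carriers gave -0.25, -0.60, -0.20 and -0.23 (filter, totals, pseudocount, trend and block), and -0.48 to -0.25 with 1 library left out. Amine and other carriers gave -1.001 (filter), -0.47 (totals) and -0.63 (mean of at least 1 RPKM), and -0.76 to -0.092 with 1 library left out. The WT median was 6.61 RPKM, and 6.405 RPKM with the longest transcript, where 10 genes moved by more than 1.5 times. With 100 to 200 cells per library, 4 against 3 libraries and an estimated depth, genes near 1 RPKM carry the least precise values.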

Other observations

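Slc5a2 and Slc10a7 were singled out after their values were seen. The kidney glucose carrier Slc5a2 averaged 6.87 ± 1.21 RPKM in FSC-A High and 5.57 ± 1.09 RPKM in FSC-A Low, and had 0 reads in all 4 WT libraries; it shares 597 exon bases with BC017158. How each kind of file assigned reads of shared exons is not given in the sources used here. In all, 35 of the 138 genes share at least 100 exon bases with another gene.

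Slc10a7 was the 1 Slc gene that passed after the length and GC trend was removed and not before. Its log2 difference was -0.53 as deposited and -1.20 after removal (adjusted p = 0.0497), on a transcript of 866 bases, 1 of 5 listed for the gene.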
